A study of Mus musculus with 12 samples.

Results

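The RNA levels of 10 genes of the Notch pathway were described in mouse colon: the receptors Notch1, Notch2, Notch3 and Notch4, the ligands Jag1, Jag2, Dll1 and Dll4, and the target genes Hes1 and Hey1. They were taken by gene symbol from 24054 genes counted in each library, and all 10 had enough reads to be tested. The study measured messenger RNA in 12 libraries, 4 for each of 3 groups, and its design sets tumours of each genotype against normal colon. Group N was normal colon labelled wild type, described as tissue next to the tumours. Group BT-T was tumour of the genotype BrafV600E;Tgfbr2-/-, an activated Braf kinase together with loss of a receptor for TGF-beta. Group BTPRZ-T was tumour of the genotype BrafV600E;Tgfbr2-/-;Rnf43-/-/Znrf3-/-;p16 Ink4a-/-, which adds loss of a pair of membrane ligases that restrain Wnt signalling and of a cell cycle inhibitor. All libraries carry the strain label NSG, an immunodeficient strain that lacks mature lymphocytes, and the tumours were engrafted, so cells of the host can be part of each sample. The labels do not say whether replicates came from separate animals, so each p-value below measures the spread between these samples, which may be technical.

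Notch receptors sit in the cell membrane and are switched on by ligands of the Jagged and Delta-like families on a touching cell. Binding leads to cleavage of the receptor by an ADAM protease and then by the gamma-secretase complex, and the freed intracellular part enters the nucleus, joins the DNA-binding protein RBPJ and a Mastermind protein, and switches on repressors of the HES and HEY families. In the intestine, Notch signalling keeps progenitors in the absorptive lineage by holding down Atoh1, the regulator that starts secretory fates. In vessels, Dll4 and Notch4 are known as endothelial genes and Notch3 as a gene of the mural cells around them.

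RBPJ recognises the core motif TGGGAA, and the 250 bases before each start site were read for it on both strands (RefSeq, GRCm38.p6). RefSeq windows were matched by symbol for 8 of the 10 genes, without Hes1 and Hey1, and 0 of the 8 held the motif. The 8 genes had 9 windows, 0 with the motif. Among 32851 windows of all genes, 21.6% held it, and 17 of 63 windows of the wider pathway lists described below did (27.0%). Those windows came from 46 matched genes of 63 listed, and 16 of the 46 genes held the motif (34.8%). A match here is a description of letters, and the lack of one says only that these letters are not in the window. The windows of Notch2, Jag1 and Dll4 are shown because these 3 had the lowest p-values in tumour against normal colon, and that of Lfng, the Lunatic fringe sugar transferase that modifies Notch receptors, is shown for contrast because it holds the motif in both directions, starting 135 and 108 bases before its start site. Capitals mark the motif as TGGGAA or its complement TTCCCA, and each sequence runs 5′ to 3′ on the strand of its gene. The windows follow RefSeq start sites, and those of Notch2, Jag1 and Lfng reach past the gene starts of the GENCODE annotation.
Notch2 (chr3:98013288-98013537, plus strand): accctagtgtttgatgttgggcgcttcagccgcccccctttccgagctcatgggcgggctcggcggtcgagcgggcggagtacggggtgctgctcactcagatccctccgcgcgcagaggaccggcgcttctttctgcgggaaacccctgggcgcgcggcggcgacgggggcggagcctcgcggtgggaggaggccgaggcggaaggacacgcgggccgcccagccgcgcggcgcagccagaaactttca
Jag1 (chr2:137116521-137116770, minus strand): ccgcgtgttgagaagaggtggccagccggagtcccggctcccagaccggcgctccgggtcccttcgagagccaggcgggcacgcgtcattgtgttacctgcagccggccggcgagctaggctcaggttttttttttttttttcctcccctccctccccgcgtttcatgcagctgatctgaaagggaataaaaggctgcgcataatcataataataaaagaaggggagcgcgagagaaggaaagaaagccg
Dll4 (chr2:119325534-119325783, plus strand): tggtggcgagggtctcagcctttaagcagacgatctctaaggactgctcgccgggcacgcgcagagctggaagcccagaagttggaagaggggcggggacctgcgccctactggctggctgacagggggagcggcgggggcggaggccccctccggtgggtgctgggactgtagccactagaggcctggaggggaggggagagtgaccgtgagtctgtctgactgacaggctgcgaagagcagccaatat
Lfng (chr5:140607091-140607340, plus strand): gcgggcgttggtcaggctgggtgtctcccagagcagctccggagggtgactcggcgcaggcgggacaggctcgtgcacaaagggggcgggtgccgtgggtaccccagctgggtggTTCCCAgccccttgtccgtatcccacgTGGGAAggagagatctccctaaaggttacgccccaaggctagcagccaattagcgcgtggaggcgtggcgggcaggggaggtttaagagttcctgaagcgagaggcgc
The windows of these Notch genes were rich in G and C, at 72.0% for Notch2, 57.2% for Jag1 and 65.6% for Dll4. Over the 9 windows of the 8 matched genes, the median was 65.6% with a median of 17 CG pairs, against 52.4% and 6 CG pairs over all windows.

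Libraries held 15732004 to 26052772 reads on genes. Fewer genes had a read in N replicate 2 and in BTPRZ-T replicates 1 and 4 (13450 to 14697 genes) than in the other 9 (16131 to 17266), and ribosomal protein genes took 4.74 to 9.79% of reads against 1.38 to 4.05%. Results are therefore given with and without these 3 libraries, called thinner below for their fewer detected genes. Their reads on genes were not all low, at 19191146 in N replicate 2, 15732004 in BTPRZ-T replicate 1 and 21160052 in BTPRZ-T replicate 4. Every fit without the 3 libraries rests on replicates 2 and 3 alone for BTPRZ-T and on replicates 1, 3 and 4 for N. Levels are given as CPM, the reads of a gene scaled to a common library size. Summed levels of 12 epithelial markers were 11494 to 14566 CPM in N, 9946 to 12046 CPM in BT-T tumours and 9126 to 17972 CPM in BTPRZ-T tumours. These ranges overlapped, but BTPRZ-T replicates 1 to 3 lay above every N and every BT-T library. Only BTPRZ-T replicate 4, a thinner library, lay below them. The gene counts did not show the labelled losses: Tgfbr2 stood at 71.1 to 286 CPM in N, 314 to 527 CPM in BT-T tumours and 149 to 271 CPM in BTPRZ-T tumours, and Rnf43 was 82.9 to 193 CPM in BTPRZ-T against 19.3 to 74.6 CPM in N. Znrf3 was 16.7 to 37.4 CPM in BTPRZ-T and 1.90 to 39.1 CPM in N. Cdkn2a, the gene of p16 Ink4a, was 18.8 to 31.4 CPM in BTPRZ-T, where the label gives its loss, 8.21 to 15.8 CPM in BT-T tumours, and at most 0.355 CPM in the N libraries. Which exons were altered is not stated in the labels, and counts over a whole gene do not check the loss of a part of it.

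Compared per kilobase of the longest transcript, Hes1 was the most abundant of the 10 genes in every group, at 36.7 ± 10.6 CPM per kb in N (SD, n = 4), 45.9 ± 11.6 in BT-T tumours and 43.0 ± 1.52 in BTPRZ-T tumours. Its lowest library stood above the highest library of the next gene in each group. Below Hes1, the receptors and ligands lay close together. In N, the order was Notch1 (6.06 ± 3.06 CPM per kb), Jag1 (4.4 ± 2.07), Dll4 (4.12 ± 1.38), Notch2 (3.88 ± 1.54), Dll1 (3.78 ± 1.78), Notch4 (3.35 ± 2.31), Notch3 (1.59 ± 1.04) and Jag2 (1.33 ± 0.851), and each gene overlapped its neighbour. In BT-T, Jag1 (8.40 ± 1.59 CPM per kb) and Notch2 (8.23 ± 1.96) came next after Hes1 and overlapped. In BTPRZ-T, Notch4 (6.36 ± 3.03 CPM per kb) and Notch2 (5.18 ± 1.89) took these places and also overlapped. Hey1 was last in every group, at 0.666 ± 0.0053 CPM per kb in N, 1.44 ± 0.330 in BT-T tumours and 0.541 ± 0.478 in BTPRZ-T tumours.

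**Figure D1:**
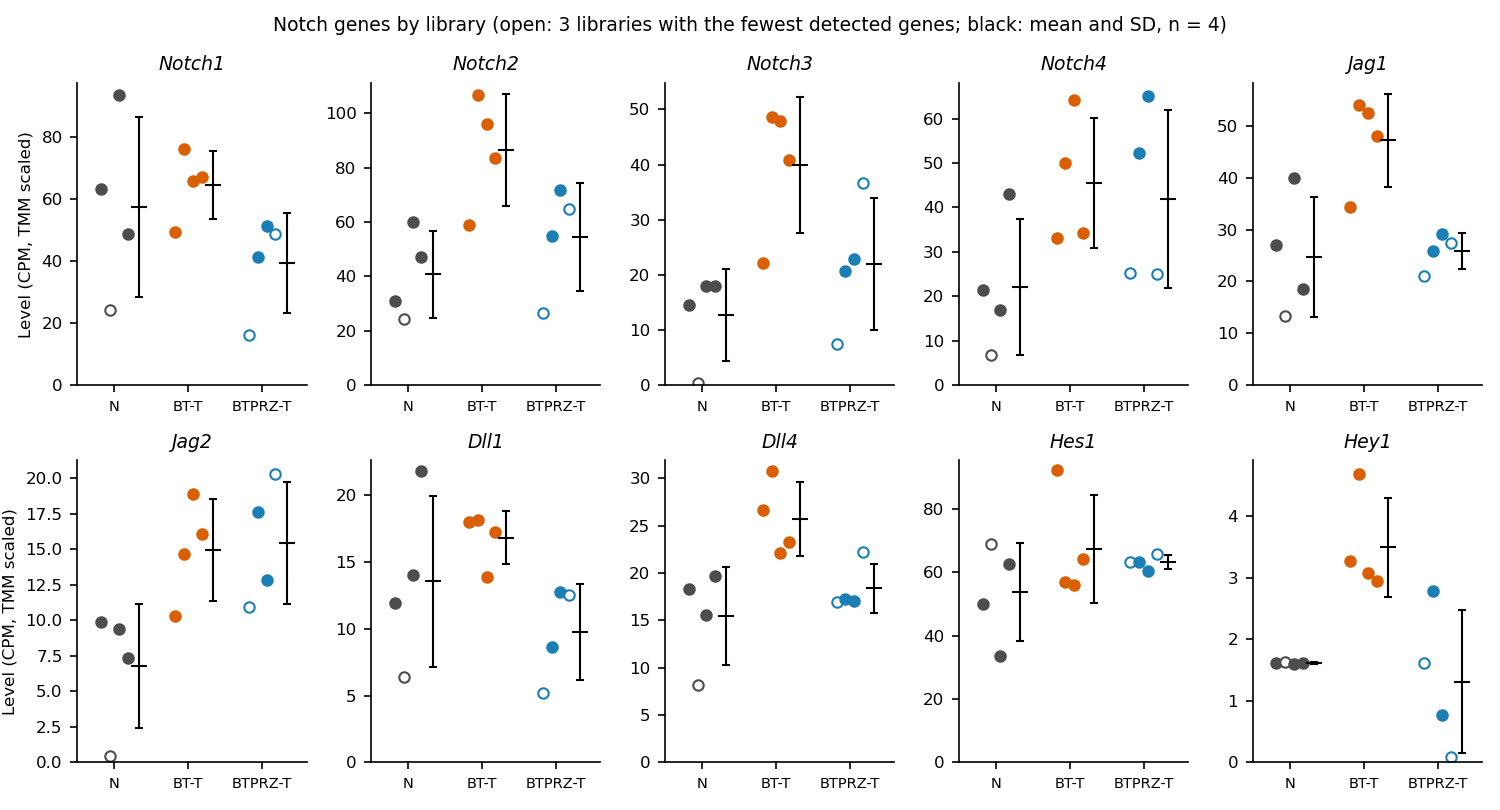
Level of each of the 10 Notch genes in CPM (linear axis from 0) in the 4 libraries of N, BT-T and BTPRZ-T, with open points for the 3 thinner libraries and the black mark and bar for the mean and SD. Notch3, Jag2, Dll4 and Hey1 are higher in all BT-T libraries than in all N libraries, and Hes1 overlaps between all groups.

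In BT-T against N, the estimated log2 fold changes of all 10 Notch genes lay above 0, as did those of 44% of all 14860 genes tested. Their median was 0.99, beside -0.10 over all genes. None of the 10 was called with edgeR's quasi-likelihood test at a Benjamini-Hochberg adjusted p under 0.05 (0 of 10), where 8.57% of all genes were called. At an unadjusted p under 0.05 there were 4 (Notch2, Notch3, Jag1 and Dll4), all higher, beside 11.5% of all genes higher and 24.1% in either direction. Levels did not overlap between BT-T and N for 4 genes, all higher in BT-T (Notch3, Jag2, Dll4 and Hey1), beside 13.4% of all genes higher without overlap. DESeq2 called 2 higher, Notch2 and Jag1, beside 9.1% of all genes. A limma voom fit that gives less weight to variable libraries called 7 higher, all but Notch1, Dll1 and Hes1, beside 20.1%.

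Without the 3 thinner libraries, 5 of the 10 genes were called higher in BT-T than in N with edgeR (Notch2, Notch3, Jag1, Jag2 and Dll4). In that fit 16.1% of 15208 genes were called higher, and the median of all genes moved from -0.10 to 0.03. The median of the 10 genes was 0.80. Among fits that left out 1 library each, the number called was 0 or 1: Jag1 passed without N replicate 3 (adjusted p = 0.0268) and Notch2 without BTPRZ-T replicate 1 (adjusted p = 0.0480), both with edgeR.

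Notch2, a receptor of broad tissue range, stood at 31.1, 24.4, 60.1 and 47.3 CPM in N replicates 1 to 4. In BT-T it was 59.1, 107, 96.3 and 83.6 CPM, so that only the lowest BT-T library fell below the highest of N. In BTPRZ-T it was 26.5, 54.9, 71.7 and 64.7 CPM, and the range overlapped both other groups. The log2 fold change was 1.09 ± 0.35 (SE) in BT-T against N (95% interval 0.32 to 1.85, edgeR adjusted p = 0.0800). The estimate was 0.42 ± 0.35 in BTPRZ-T against N (adjusted p = 0.519) and -0.67 ± 0.35 in BTPRZ-T against BT-T (adjusted p = 0.345). In the 9 other libraries the first of these was 0.97 ± 0.25 with an adjusted p of 0.0178.

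Notch3, known from mural cells, was 14.6, 0.474, 17.9 and 18.02 CPM in N replicates 1 to 4, the second of these from 7 reads. It was 22.1, 48.6, 47.9 and 40.9 CPM in BT-T, all above N. The BTPRZ-T libraries held 7.49, 20.6, 23.0 and 36.7 CPM and overlapped both other groups. The log2 fold change was 1.64 ± 0.74 in BT-T against N (95% interval 0.04 to 3.25, edgeR adjusted p = 0.198), the widest interval among the receptors. It was 1.31 ± 0.26 without the 3 libraries (adjusted p = 0.00433).

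Notch4, a receptor of endothelial cells, stood at 21.5, 6.84, 16.8 and 43.0 CPM in N. It was 33.2, 50.0, 64.2 and 34.3 CPM in BT-T and 25.4, 52.2, 65.1 and 25.1 CPM in BTPRZ-T, and every pair of groups overlapped. The log2 fold change was 1.04 ± 0.50 in BT-T against N (edgeR adjusted p = 0.222) and 0.93 ± 0.50 in BTPRZ-T against N (adjusted p = 0.271). Over those 9 libraries the second was 1.17 ± 0.39 with an adjusted p of 0.0433, and the first was 0.81 ± 0.34 with an adjusted p of 0.104. The BTPRZ-T libraries kept there were the higher ones, at 52.2 and 65.1 CPM, and those left out were at 25.4 and 25.1 CPM.

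Notch1, the receptor best known from intestinal progenitors, spread widely in N, at 63.3, 24.2, 93.7 and 48.7 CPM. It was 49.4, 76.1, 65.8 and 67.2 CPM in BT-T, inside the range of N. The BTPRZ-T libraries held 16.3, 41.5, 51.4 and 48.9 CPM and overlapped both. Its estimate was 0.17 ± 0.41 in BT-T against N (95% interval -0.71 to 1.05) and -0.54 ± 0.41 in BTPRZ-T against N (-1.42 to 0.34). These intervals leave room for a change in either direction, and without the 3 libraries the estimate in BT-T was -0.02 ± 0.22.

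Among the ligands, Jag1 stood at 26.9, 13.3, 39.9 and 18.6 CPM in N. It was 34.3, 53.9, 52.4 and 48.1 CPM in BT-T, where 3 of 4 libraries lay above all of N. In BTPRZ-T it was 21.1, 25.9, 29.1 and 27.5 CPM, below every BT-T library and inside the range of N. The log2 fold change was 0.93 ± 0.31 in BT-T against N (95% interval 0.26 to 1.61, edgeR adjusted p = 0.0878) and 0.07 ± 0.31 in BTPRZ-T against N (-0.60 to 0.74). In BTPRZ-T against BT-T it was -0.86 ± 0.31 (-1.54 to -0.19, adjusted p = 0.188), and with N left out of the fit the adjusted p was 0.0269.

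Jag2, the other Jagged ligand, was low in N, at 9.90, 0.474, 9.39 and 7.36 CPM, and 7 reads stood behind the second value. The values were 10.3, 14.7, 18.9 and 16.1 CPM in BT-T and 10.97, 17.7, 12.8 and 20.3 CPM in BTPRZ-T. All 8 tumour libraries lay above all 4 of N, the nearest pair being 10.3 and 9.90 CPM. Against N, the log2 fold change was 1.14 ± 0.61 for BT-T (edgeR adjusted p = 0.271) and 1.19 ± 0.61 for BTPRZ-T (adjusted p = 0.248), comparisons that share the N libraries. Leaving out the 3 thinner libraries gave 0.82 ± 0.25 (adjusted p = 0.0311) and 0.84 ± 0.28 (adjusted p = 0.0428).

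Dll4, the ligand of sprouting vessels, was 18.3, 8.12, 15.6 and 19.7 CPM in N. In BT-T it was 26.6, 30.8, 22.1 and 23.3 CPM, above every N library. The BTPRZ-T libraries gave 17.0, 17.2, 17.1 and 22.3 CPM, of which 3 lay within the range of N and replicate 4 lay above it and above the lowest of BT-T. The log2 fold change was 0.74 ± 0.28 in BT-T against N (95% interval 0.13 to 1.34, edgeR adjusted p = 0.131) and 0.25 ± 0.28 in BTPRZ-T against N. In the other 9 libraries Dll4 rose by 0.59 ± 0.16 in BT-T against N (adjusted p = 0.0194) and fell by 0.59 in BTPRZ-T against BT-T (SE 0.18, adjusted p = 0.0407).

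Dll1, a ligand of secretory progenitors in the intestine, was 11.9, 6.43, 14.1 and 21.8 CPM in N and 18.02, 18.2, 13.9 and 17.3 CPM in BT-T, within the range of N. It was 5.16, 8.62, 12.8 and 12.5 CPM in BTPRZ-T, below every BT-T library. The estimate in BTPRZ-T against BT-T was -0.78 ± 0.38 (95% interval -1.61 to 0.04, edgeR adjusted p = 0.309).

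Hes1, the main Notch target of the intestinal epithelium, was 50.0, 69.0, 33.7 and 62.5 CPM in N. It was 92.4, 57.0, 55.9 and 64.1 CPM in BT-T, where only replicate 1 lay above all of N. In BTPRZ-T it was 63.2, 63.4, 60.3 and 65.8 CPM, an SD of 2.23 CPM around a mean of 63.2 CPM. The estimates were 0.32 ± 0.25 in BT-T (95% interval -0.21 to 0.86, edgeR adjusted p = 0.456) and 0.23 ± 0.25 in BTPRZ-T (-0.30 to 0.76, adjusted p = 0.630) against N, and -0.09 ± 0.25 between the tumours (-0.63 to 0.44). Of the 10 genes, Hes1 had the narrowest intervals, and they still held changes of up to 0.86 on the log2 scale.

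Hey1, a target known from vessels, was near the limit of detection, with 24 to 28 reads per library in N, 58 to 96 in BT-T tumours and 2 to 58 in BTPRZ-T tumours. That is 1.61, 1.62, 1.60 and 1.62 CPM in N and 3.28, 4.67, 3.08 and 2.94 CPM in BT-T, with no overlap. The BTPRZ-T libraries gave 1.61, 2.78, 0.771 and 0.0873 CPM, all below BT-T. The estimates were 1.11 ± 0.74 in BT-T against N (95% interval -0.49 to 2.71, edgeR adjusted p = 0.383) and -1.41 ± 0.74 in BTPRZ-T against BT-T (-3.02 to 0.20, adjusted p = 0.345).

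In BTPRZ-T against N, 7 of the 10 estimates lay above 0 and 3 below (Notch1, Dll1 and Hey1), beside 43.2% of all genes above 0, and their median was 0.24 beside -0.10 over all genes. With edgeR 0 of 10 were called, where 11.8% of all genes were, and 0 had an unadjusted p under 0.05, beside 25.5% of all genes. DESeq2 also called 0, beside 20.5%, and the weighted voom fit called 5, of which Notch4, Jag2 and Hes1 were higher and Notch1 and Dll1 lower, beside 55.2%. Only Jag2 had no overlap, beside 6.88% of all genes higher without overlap. Without the 3 libraries 2 genes were called higher, Notch4 and Jag2, beside 18.1% of all genes called higher, and without N replicate 2 alone Jag2 passed (edgeR adjusted p = 0.0499).

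Between the tumour genotypes, 9 of the 10 estimates lay below 0 in BTPRZ-T against BT-T, where 48.6% of all genes lay above 0, and their median was -0.69 beside -0.03 over all genes. With edgeR 0 of 10 were called, beside 0.754% of all genes, and 1 had an unadjusted p under 0.05 (Jag1, lower), beside 10.1% of all genes lower. DESeq2 called 0, beside 8.19%, and the weighted voom fit called 6 (Notch1, Notch2, Notch3, Jag1, Dll1 and Dll4), all lower, beside 27.5%. Jag1, Dll1 and Hey1 were lower in BTPRZ-T without overlap, beside 12.7% of all genes. Without the 3 libraries 1 gene was called lower, Dll4, beside 14.8% of all genes called lower, and without N replicate 2 Jag1 passed (edgeR adjusted p = 0.0276). This comparison is also the test of whether the effects of the 2 genotypes against N differ.

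**Figure D2:**
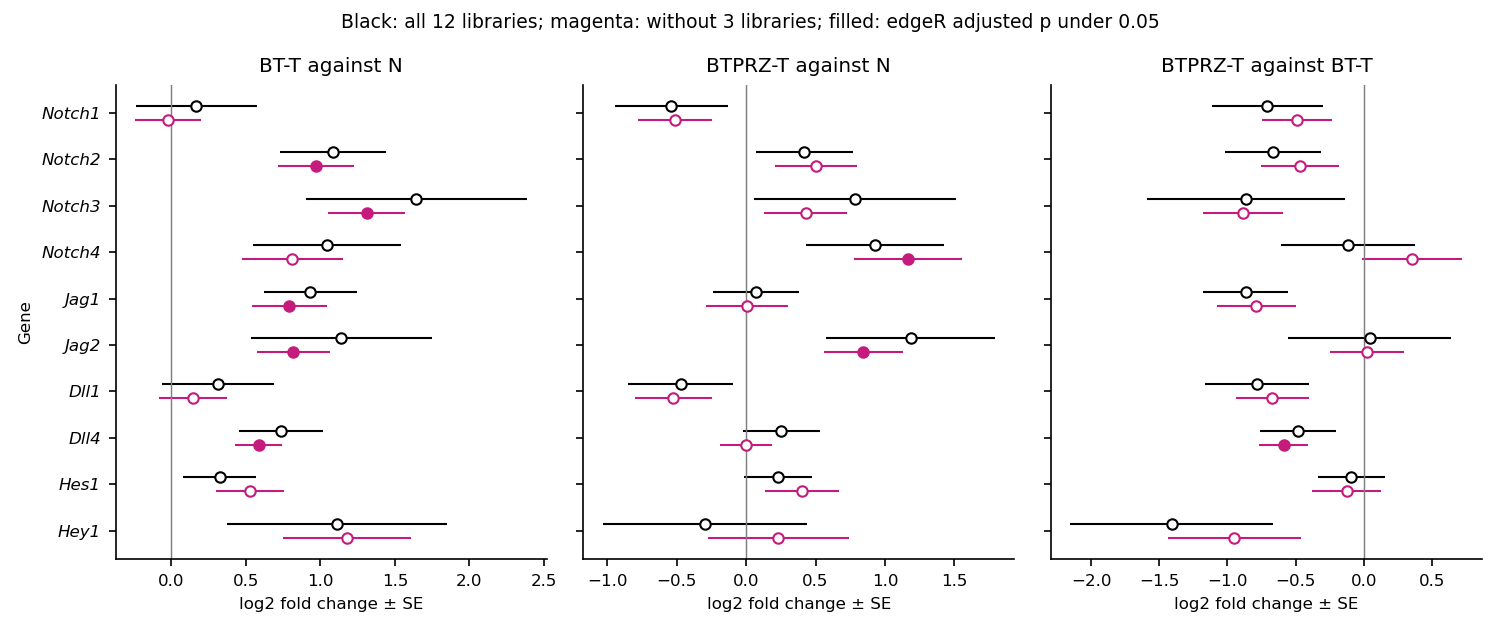
Log2 fold change with its standard error for the 10 Notch genes in the 3 comparisons, from all 12 libraries (black) and without the 3 thinner libraries (magenta), filled where the edgeR adjusted p is under 0.05. No black point is filled, and 5, 2 and 1 magenta points are filled for BT-T and BTPRZ-T against N and between the tumours, in that order.

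Within a library, the make-up of receptor RNA can be read as each gene's share of the summed CPM per kb of the 4 receptors. Notch1 made up 45.3, 42.8, 48.4 and 27.9% of it in N, 28.0, 25.2, 21.8 and 27.9% in BT-T and 19, 21.7, 21.7 and 26.2% in BTPRZ-T. Thus 3 of the 4 N libraries lay far above all tumours, and N replicate 4 lay among the highest tumour values. Notch4 was the largest share in 3 BTPRZ-T libraries, at 42.7, 39.4 and 39.5% in replicates 1 to 3 and 19.4% in replicate 4, against 20.6 to 30.6% in BT-T and 12.5 to 35.4% in N. The share of Notch2 was 27.9 ± 8.0% (SD, n = 4) in N, 30.6 ± 1.40% in BT-T tumours and 28.2 ± 2.24% in BTPRZ-T tumours. Among the ligands, Jag2 made up 1.44 to 12.97% in N, 9.97 to 16.3% in BT-T tumours and 15.9 to 22.9% in BTPRZ-T tumours, while Dll4 held 30.9 ± 4.33%, 30.0 ± 4.22% and 32.5 ± 4.06%. A share shows unequal levels within a library and not which gene changed.

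**Figure D3:**
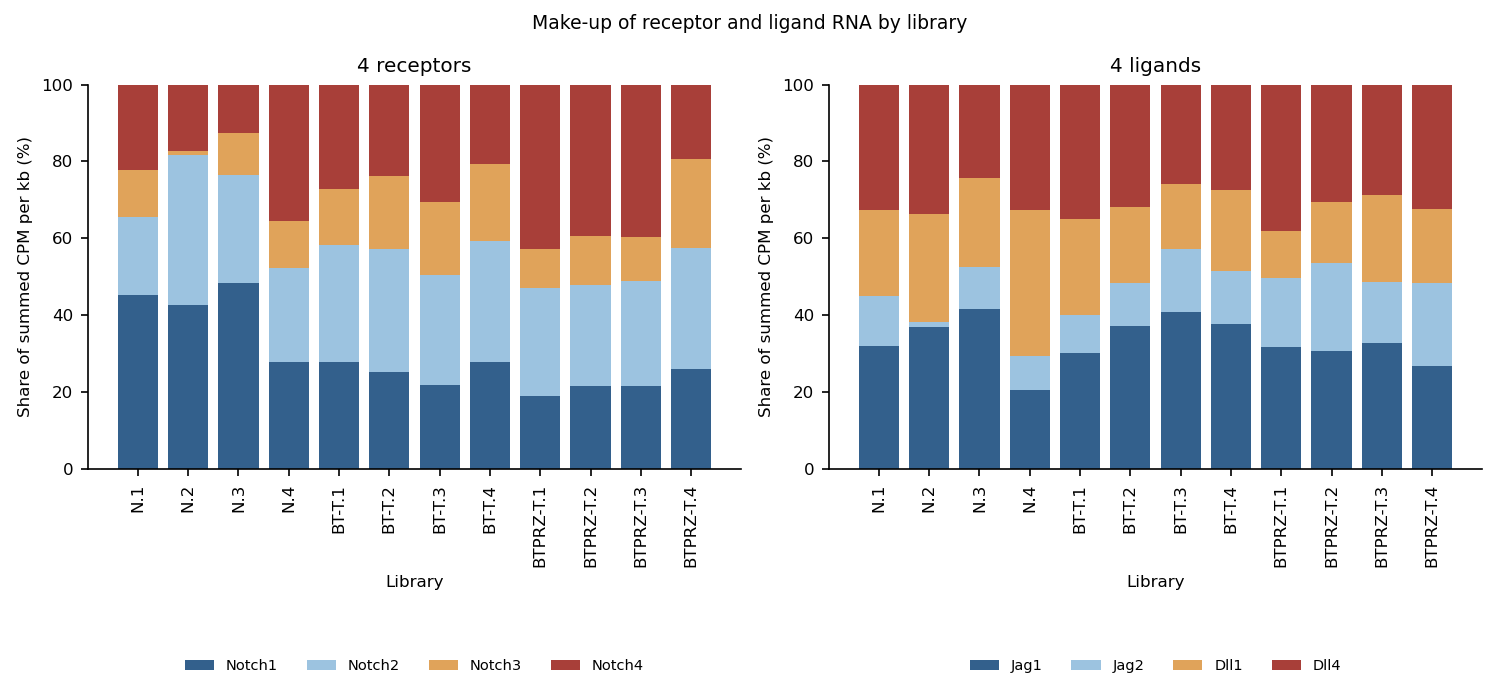
Share (%) of each receptor in the summed CPM per kb of the 4 receptors (left) and of each ligand in that of the 4 ligands (right), 1 bar per library. Notch1 takes 41.1% on average in N against 25.7% in BT-T and 22.1% in BTPRZ-T, and N replicate 4 is the N library nearest to the tumours.

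The wider pathway was taken as 63 genes in lists of other ligands, sugar transferases, proteases, trafficking and ubiquitin proteins, nuclear partners and other targets, of which 58 had enough reads to be tested. In BT-T against N, 5 of the 58 rose and 1 fell, beside 5.67% of all genes higher and 2.9% lower, with a median of 0.09 over the lists. In BTPRZ-T against N, 5 rose and 3 fell, beside 5.66% higher and 6.18% lower, with a median of 0.01. These counts were near the share of all genes called. Without the 3 libraries, of 59 tested, 14 rose and 13 fell in BT-T, beside 16.1% of all genes higher and 12.6% lower. In BTPRZ-T 11 rose and 14 fell, beside 18.1% and 16.8%. Between the tumours edgeR called 0 of 58, beside 0.754% of all genes, while 10 had an unadjusted p under 0.05, beside 17.3%. DESeq2 called 4, beside 8.19%, and the weighted voom fit called 30, beside 52%. Without the 3 libraries edgeR called 16 of 59, 4 higher and 12 lower, beside 24.5% of all genes.

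Of the sugar transferases that tune which ligand a receptor responds to, Mfng (Manic fringe) was 2.07, 0.745, 1.06 and 2.50 CPM in N, 6.27, 7.35, 8.12 and 5.37 CPM in BT-T and 7.81, 5.70, 2.97 and 17.8 CPM in BTPRZ-T. All tumour libraries lay above all of N. It rose by 2.08 ± 0.57 on the log2 scale in BT-T (edgeR adjusted p = 0.0403) and by 2.42 ± 0.57 in BTPRZ-T (adjusted p = 0.0174). The call in BT-T was lost without N replicate 1 or 3, without any 1 of the 4 BT-T libraries and without BTPRZ-T replicate 1 or 2 (adjusted p up to 0.110), and that in BTPRZ-T without N replicate 3 and with only the compared groups in the fit. Without the 3 libraries the rise in BTPRZ-T was 1.28 ± 0.42 (adjusted p = 0.0384). Lfng was 20.1 ± 3.61 CPM in N, 27.3 ± 1.88 in BT-T tumours and 31.8 ± 15.1 in BTPRZ-T tumours (SD, n = 4), and with edgeR on all 12 libraries it was not called in any comparison (adjusted p of 0.404, 0.196 and 0.719). In BT-T against N it was called higher by the weighted voom fit (0.47 ± 0.14, adjusted p = 0.0126) and by edgeR without the 3 thinner libraries (0.61 ± 0.17, adjusted p = 0.0224).

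Dtx4, a Deltex ubiquitin ligase of the pathway, was 51.7 ± 14 CPM in N, 109 ± 9.65 in BT-T tumours and 121 ± 30.1 in BTPRZ-T tumours. In BT-T it rose by 1.08 ± 0.25 (edgeR adjusted p = 0.0181), and the rise in BTPRZ-T was 1.23 ± 0.25 (adjusted p = 0.00768), and the first call was lost without N replicate 3 or BT-T replicate 2, 3 or 4 (adjusted p up to 0.0562). Mib2, a ligase that acts on ligands, fell by 1.20 in BTPRZ-T (SE 0.21, adjusted p = 0.00355), from 24.1 ± 4.13 to 10.5 ± 0.685 CPM. In BT-T Mib2 stood at 15.3 ± 0.385 CPM (adjusted p = 0.0765).

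Adam10, the protease of the first receptor cut, was 133 ± 41.1 CPM in N, 261 ± 39 in BT-T tumours and 264 ± 78.5 in BTPRZ-T tumours. It rose by 0.98 ± 0.29 in BTPRZ-T (edgeR adjusted p = 0.0476), a call that 13 of 21 alternatives ended, among them leaving out N replicate 1, 3 or 4, any BT-T library, or BTPRZ-T replicate 1, 2 or 3. In BT-T the change was 0.97 ± 0.29 (adjusted p = 0.0627).

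Of the nuclear partners, Maml2, a Mastermind co-activator, rose by 1.63 ± 0.43 in BT-T (edgeR adjusted p = 0.0368), from 7.69 ± 2.62 to 23.8 ± 7.70 CPM. That call was lost without N replicate 1 or 3, BT-T replicate 2, 3 or 4 or BTPRZ-T replicate 2 (adjusted p up to 0.113). Rbpj was 14.6, 15.6, 14.1 and 15.1 CPM in N, 18.99, 26.3, 20.6 and 22.2 CPM in BT-T and 12.4, 17.2, 20.9 and 9.99 CPM in BTPRZ-T. BT-T lay above N without overlap, with a log2 fold change of 0.57 ± 0.26 (adjusted p = 0.200, and 0.0102 without the 3 libraries).

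Among the ligands outside the canonical families, Nov, a secreted matrix protein, fell by 2.75 in BT-T (SE 0.45, edgeR adjusted p = 0.00291) and by 2.97 in BTPRZ-T (SE 0.45, adjusted p = 0.00166), from 688 ± 41.2 CPM in N to 102 ± 83.3 and 87.5 ± 21.1 CPM. Mfap2, a microfibril protein, rose by 3.14 ± 0.46 in BT-T (adjusted p = 0.00161) and by 2.12 ± 0.45 in BTPRZ-T (adjusted p = 0.00969), where it was 1.24 ± 0.38 without the 3 libraries (adjusted p = 0.0288) and not called with only the compared groups in the fit. Dlk1 fell by 3.94 in BTPRZ-T (SE 1.00, adjusted p = 0.0238) from 2.49 ± 2.13 CPM, and this call was lost without N replicate 4 or BTPRZ-T replicate 2 or 3, with the replicate block (adjusted p = 0.0997) and with only the compared groups in the fit (adjusted p = 0.110). Dll3 held 0 to 12 reads per library and was not tested.

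Among the other targets, Heyl, known from mural cells, was 5.70, 0.271, 7.56 and 4.66 CPM in N. It was 17.5, 35.9, 22.7 and 20.1 CPM in BT-T, all above N, and 11.5, 11.7, 4.46 and 28.4 CPM in BTPRZ-T, which overlapped both. The log2 fold change in BT-T was 2.4 ± 0.74 (edgeR adjusted p = 0.0647), with an adjusted p of 0.00335 without the 3 libraries and 0.0240 without N replicate 2 alone. Nrarp, a feedback inhibitor that Notch signalling switches on, was 26.4, 14.3, 28.8 and 37.1 CPM in N, 20.7, 21.6, 22.6 and 14.7 CPM in BT-T and 17.2, 18.1, 17.0 and 11.3 CPM in BTPRZ-T. Its estimates lay below 0, at -0.42 ± 0.30 (adjusted p = 0.418) and -0.74 ± 0.30 (adjusted p = 0.133), and without the 3 libraries Nrarp fell by 0.56 in BT-T and 0.75 in BTPRZ-T (adjusted p of 0.0431 and 0.0277). Thus Heyl and Nrarp, both Notch targets, had estimates of opposite sign. Gata3 was called higher in both tumours (3.56 ± 0.75 and 3.09 ± 0.74, adjusted p of 0.0109 and 0.0176) from 0.197 ± 0.113 CPM in N, the call in BTPRZ-T being lost with the replicate block (adjusted p = 0.0551) and with only the compared groups in the fit. Hes5 held 3 reads in 1 N library and 0 in the other 11, and was not tested.

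**Figure D4:**
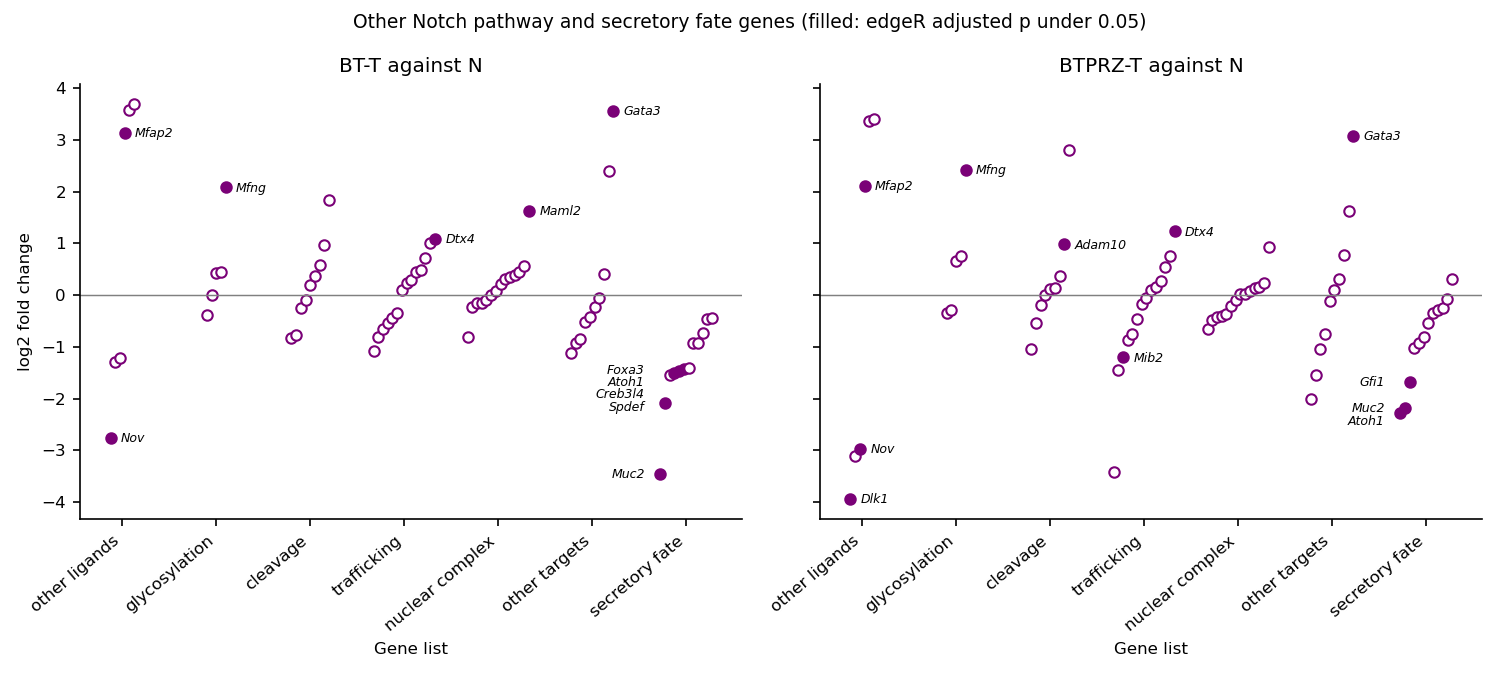
Log2 fold change of each tested gene of the wider Notch pathway lists and of the secretory fate list in BT-T against N (left) and BTPRZ-T against N (right), ordered within each list and filled with its name where the edgeR adjusted p is under 0.05. Mfng, Dtx4, Mfap2 and Gata3 are filled above 0 and Nov below 0 in both panels, and every filled secretory fate gene lies below 0.

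Of 12 genes of the secretory lineages, 5 fell and 0 rose in BT-T against N with edgeR, beside 2.9% of all genes lower. In BTPRZ-T 3 fell and 0 rose, beside 6.18% lower, and the medians of the list were -1.43 and -0.67. Atoh1, the gene that Hes1 represses, was 165, 123, 122 and 228 CPM in N, 91.2, 52.05, 36.01 and 52.4 CPM in BT-T and 38.2, 28.5, 32.4 and 31.9 CPM in BTPRZ-T. Every tumour library lay below every N library. Atoh1 fell by 1.46 in BT-T (SE 0.30, edgeR adjusted p = 0.00998) and 2.29 in BTPRZ-T (SE 0.31, adjusted p = 0.000885), calls that all 21 alternatives kept. Muc2, the goblet cell mucin, fell by 3.46 (SE 0.69, adjusted p = 0.00816) and 2.18 (SE 0.65, adjusted p = 0.0472), the second of which 13 of 21 alternatives ended, among them leaving out N replicate 3, where the fall was 1.44 (adjusted p = 0.159). Spdef, a regulator of goblet cells below Atoh1, fell by 2.09 in BT-T (SE 0.37, adjusted p = 0.00427), from 188 ± 39.4 to 44.0 ± 26.2 CPM. It was 154 ± 17.9 CPM in BTPRZ-T, higher than in BT-T by 1.81 ± 0.37 (adjusted p = 0.0487), a call that 11 of 21 alternatives ended. Foxa3 had a log2 fold change of -1.44 ± 0.28 in BT-T against N (edgeR adjusted p = 0.00690), a call that all 21 alternatives kept. For Gfi1 it was -1.68 ± 0.47 in BTPRZ-T against N (adjusted p = 0.0349), a call that 9 of 21 alternatives ended. With the 3 thinner libraries left out, 10 of the 12 fell in BT-T, beside 12.6% of all genes lower, and 4 fell in BTPRZ-T, beside 16.8%. Between the tumours 3 were then higher in BTPRZ-T, beside 9.71% of all genes higher.

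Markers of vessels and stroma were measured beside these genes, because several of the 10 are also expressed there; in whole tissue, fewer cells of a type and less RNA per cell cannot be told apart. The summed level of 15 endothelial markers was 194 to 405 CPM in N, 592 to 1120 CPM in BT-T tumours and 421 to 826 CPM in BTPRZ-T tumours. Both tumour groups lay above N, BTPRZ-T by a narrow gap (421 beside 405 CPM). In that sum Cdh5 went from a mean of 29.8 CPM in N to 169 CPM in BTPRZ-T. Estimates of Kdr, Tek, Vwf, Cldn5 and Ptprb lay below 0 in BTPRZ-T against N, none of them called, and the rest above 0. With edgeR 5 of the 15 rose in BT-T and 2 in BTPRZ-T, beside 5.67% and 5.66% of all genes higher. Without the 3 libraries 10 rose in BT-T, beside 16.1% of all genes higher, while in BTPRZ-T 3 rose and 2 fell, beside 18.1% higher and 16.8% lower, and 8 were lower in BTPRZ-T than in BT-T, beside 14.8%. For 8 mural markers the sum was 261 to 495 CPM in N. It was 494 to 795 CPM in BT-T tumours and 212 to 388 CPM in BTPRZ-T tumours. Of the 8 markers edgeR called 2 higher and 1 lower in BT-T, beside 5.67% and 2.9% of all genes. In BTPRZ-T 0 were higher and 1 lower, beside 5.66% and 6.18%. Without the 3 libraries BT-T had 6 higher and 1 lower, beside 16.1% and 12.6%. BTPRZ-T then had 2 higher and 1 lower, beside 18.1% and 16.8%. The marker called lower from all 12 libraries was Rgs5, at -0.93 ± 0.26 on the log2 scale in BT-T and -2.17 ± 0.27 in BTPRZ-T. Estimates of the others lay above 0, except Cspg4 in BTPRZ-T (-0.57). Sums of 10 fibroblast markers were 1246 to 2037 CPM in N, 8740 to 17111 CPM in BT-T tumours and 1830 to 8771 CPM in BTPRZ-T tumours, and those of 10 macrophage markers 179 to 694, 1189 to 1930 and 396 to 2940 CPM. The sum of 8 smooth muscle markers was 7292 to 19020 CPM in N, 3646 to 5955 in BT-T tumours and 477 to 4824 in BTPRZ-T tumours. Of the 12 epithelial markers edgeR called 1 higher in BTPRZ-T than in N, beside 5.66% of all genes higher. Between the tumours it called 0, beside 0.754% of all genes. Without the 3 libraries 5 were higher in BTPRZ-T than in N, beside 18.1%, and 6 higher than in BT-T, beside 9.71%. No marker of these lists was at 0 throughout a group, and the part of these cells in the Notch gene levels was not tested.

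Across the 12 libraries, which share the group differences and the 3 libraries with few genes, log2 levels of the receptors had a Pearson r with the endothelial sum of 0.878 for Notch3, 0.836 for Notch2, 0.684 for Notch4 and 0.472 for Notch1. Over the 9 libraries without the 3 thinner ones these were 0.956, 0.813, 0.493 and 0.158. For the ligands the r was 0.873 for Dll4, 0.810 for Jag1, 0.800 for Jag2 and 0.507 for Dll1 over 12 libraries, and 0.780, 0.763, 0.744 and 0.223 over 9. For the targets it was 0.133 for Hes1 and 0.266 for Hey1 over 12 libraries, and 0.341 and 0.795 over 9. Thus Notch3 had the highest r with the endothelial sum in both sets, while the order of the others depended on the 3 libraries. Over the 9 libraries Dll4 had a higher r with the macrophage (0.832) and fibroblast (0.816) sums than with the endothelial sum. Notch3 had an r of 0.890 with the fibroblast sum and 0.876 with the macrophage sum over these 9. Its r with the mural sum was 0.600 over 12 libraries and 0.689 over 9. Those of Jag1 (0.796 and 0.759) and Dll4 (0.695 and 0.724) with the mural sum were higher in both sets. Over 12 libraries the endothelial r was the highest among the marker sums for Notch2, Notch3, Notch4, Jag1, Jag2 and Dll4. The mural r was the highest for Notch1 (0.602), Dll1 (0.604) and Hey1 (0.563), and the macrophage r for Hes1 (0.559). Over the 9 libraries Hey1 had an r of 0.819 with the fibroblast sum, and Notch4 had 0.573 with the macrophage sum. These values are descriptions of few libraries.

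**Figure D5:**
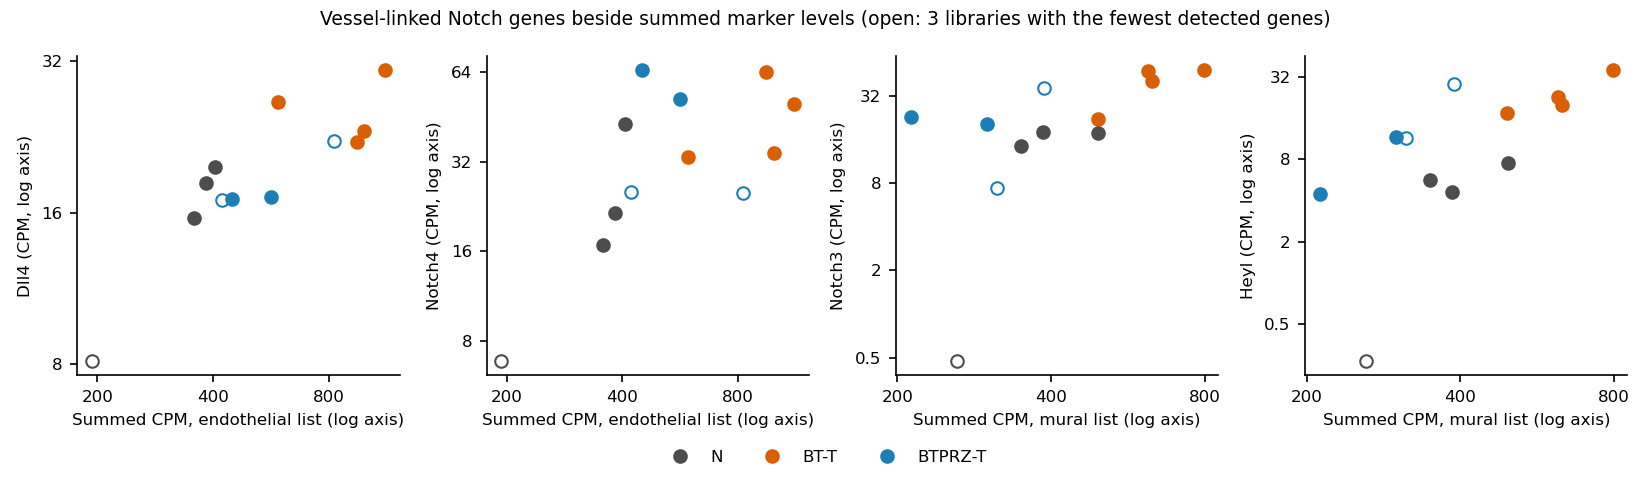
Levels in CPM of Dll4 and Notch4 against the summed endothelial markers and of Notch3 and Heyl against the summed mural markers (log axes), 1 point per library, open for the 3 thinner libraries. N replicate 2 is lowest for all 4 genes and for the endothelial sum, and the highest Dll4 and Heyl levels (30.8 and 35.9 CPM) are both in BT-T replicate 2.

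By the correlation of log2 CPM over the 12 libraries, the genes most like Notch4 were Pkp1 (r = 0.955), a plakophilin of desmosomes, and Itgb4 (0.953), an integrin of the epithelial base. The third was Smurf1 (0.939). Those most like Notch2 were Nckap5l (0.973), Maml2 (0.937) and Sh3pxd2a (0.934), and those most like Jag1 were Adam17 (0.940), a protease that can cut Notch receptors, Elmo2 (0.938) and Shroom4 (0.935). Notch3 ran closest with Ppp1r9b (0.989), Plekhg2 (0.988) and Plekhm3 (0.986), Notch1 with Bcorl1 (0.961), Tshz2 (0.956) and Kat6b (0.955), and Jag2 with Rassf9 (0.993), Atxn7l2 (0.979) and Mex3a (0.976). For Dll1 they were Stox2 (0.949), Cul5 (0.940) and Dync1li2 (0.933), for Dll4 Adarb1 (0.960), Litaf (0.957) and Itgae (0.956), and for Hey1 Lrch2 (0.946) and Bfsp1 (0.935). For Hes1 they were 9030619P08Rik (0.869), Tax1bp3 (0.847) and Hoxb13 (0.838), the lowest over 12 libraries. That order did not hold over the other 9, where Hes1 had 0.893, 0.875 and 0.845 and Dync1li2 with Dll1 had 0.778. Over the 9 libraries that remain without the 3 thinner ones, the r of the named pairs ran from 0.778 to 0.963.

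The 10 genes lie on 5 chromosomes of GRCm38 by the GENCODE annotation: Notch1 (chr2:26457903-26516663), Jag1 (chr2:137081456-137116644) and Dll4 (chr2:119325784-119335962) on chromosome 2, Notch2 (chr3:98013527-98150361) and Hey1 (chr3:8663359-8667256) on chromosome 3, Jag2 (chr12:112907819-112929776) on chromosome 12, Hes1 (chr16:30064384-30067796) on chromosome 16, and Notch3 (chr17:32120820-32166852), Notch4 (chr17:34564268-34588503) and Dll1 (chr17:15367354-15376872) on chromosome 17.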

How the data were processed

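RNA of 12 mouse colon libraries was sequenced as single reads of 100 bases from a stranded poly(A) kit, per the labels' protocols. The authors deposited raw counts per gene, with no normalization. The submitters' processing notes list bcl2fastq 2.20, STAR 2.4.2a, the mm10 build, HTSeq, edgeR 3.16.5 and limma; no annotation is named there. Each library was read from the strand-specific column that held nearly all gene reads. Groups follow the titles and genotype labels. Genes were filtered with filterByExpr, libraries scaled by TMM, and a quasi-likelihood model with a mean for each group fitted to the 12 libraries (edgeR 4.0.16, R 4.3.3, limma 3.58.1, DESeq2 1.42.0), two-sided, with Benjamini-Hochberg adjustment over 14860 genes. In simulated counts for BT-T against N, 115 of 199 genes changed by 2 on the log2 scale were recovered among 14609 genes (57.8%), with 9 false calls. That change was larger than the estimates of the 10 genes in this comparison from all 12 libraries with edgeR, at most 1.64 (Notch3). The share recovered therefore does not give the chance of calling changes of their size. Transcript lengths came from GENCODE (GRCm38). Correlations between genes used log2 CPM with a prior count of 2. Those with marker sums used log2 of the gene's CPM plus a small constant, and log2 of the summed CPM. The members and lists were chosen with earlier results of these data known. Named were all 10 genes, Rbpj, Lfng, Mfng, Nrarp, Hes5, Heyl, Atoh1 and Dll3, up to 4 called genes per list with the lowest p, and the 3 genes most like each member, of which 1 is not reported here. Alternatives changed scaling, filter, tool, strand, libraries, block and transcript length.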

Additional observations from a re-analysis of the deposited data

Results flagged for a closer look

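Dll4 in BTPRZ-T replicate 4 stood apart from the other libraries of its group, at 22.3 CPM against 17.0 to 17.2 CPM. The gap to the next library was 0.951 of the whole range of the group, above Dixon's limit for 4 samples. It was 1 of 30 groups examined this way, and chance sets apart about 1 group in 20. That library was also 1 of the 3 with the fewest detected genes and had the highest endothelial sum of its group, 826 CPM; its part in the Dll4 level was not tested.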

How the results depend on the processing

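The number of the 10 Notch genes called in BT-T against N was 2 with DESeq2, 7 with the weighted voom fit, 1 with a replicate block (Notch2, edgeR adjusted p = 0.0495) and 5 when the 3 thinner libraries were left out. In BTPRZ-T against N it was 5 with voom, 2 without the 3 libraries and 1 with the transcript length trend removed (Notch4, adjusted p = 0.0380). Between the tumours it was 6 with voom, 1 with only the compared groups in the fit (Jag1) and 1 without the 3 libraries. Leaving out 1 library gave 0 to 1 in each comparison. RLE scaling, no filter and the unstranded column gave 0 throughout. The block is no paired analysis: libraries with the same number had correlations of deviations from -0.297 to 0.315, over 0.1 in 5 of 12 pairs. Pairs with other numbers had -0.363 to 0.355, over 0.1 in 9 of 36 pairs. Of 1384 fold changes of single genes under an alternative, 1219 kept direction and side of the threshold, 74 lost and 55 gained a call, and 36 changed sign, none of them a called change.

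Signs turned as follows, where the cause was not tested. In BT-T against N, Notch1 was -0.021 without the 3 libraries, -0.14 with the length trend removed, and -0.087 to 0.51 over fits leaving out 1 library. In BTPRZ-T against N, voom gave -0.12 for Jag1, -0.028 for Dll4 and 0.51 for Hey1, and without the 3 libraries Dll4 was -0.000556 and Hey1 0.23. There Rbpj was -0.016 with RLE and with DESeq2, -0.011 with the block and -0.042 with the length trend removed. Leaving out 1 library gave -0.14 to 0.40 for Jag1, -0.98 to 0.12 for Hey1 and -0.17 to 0.20 for Rbpj. Between the tumours, Notch4 was 0.10 with voom, 0.35 without the 3 libraries and 0.24 with the length trend removed; Jag2 was -0.0084 with no filter and -0.018 with the compared groups alone; Hes1 was 0.047 with voom; Lfng was -0.20 and Mfng -0.33 with voom, and -0.39 and -0.63 without the 3 libraries. Leaving out 1 library gave -0.41 to 0.10 for Notch4, -0.15 to 0.18 for Jag2, -0.17 to 0.10 for Hes1, -0.17 to 0.42 for Lfng and -0.34 to 0.62 for Mfng.

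Hey1 rests on 2 to 96 reads per library, and Notch3 and Jag2 on 7 reads each in N replicate 2, which limits their precision. The median of all genes moved by over 0.1 in BTPRZ-T against N, from -0.10 to 0.05 without the 3 thinner libraries and to 0.0090 without N replicate 2 alone, in BT-T against N, from -0.10 to 0.03 without them, and between the tumours, from -0.03 to -0.14 with no filter. With RLE it was -0.11, -0.15 and -0.05.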
